A study of Mus musculus with 2 samples.

Results

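Here 10 genes of skin defence are described in newborn mouse skin with and without Pla2g4e, namely the beta-defensins Defb1, Defb3, Defb4, Defb6 and Defb14, the secreted antimicrobial proteins Slpi, Lcn2 and Camp, and the serum amyloid A genes Saa1 and Saa3. They were chosen by name, as every probe outside the controls whose listed gene is 1 of these 10, and they are 10 of the 24290 genes named on the array. The 10 genes have 11 probes, 2 for Camp and 1 for each of the others, and each probe is printed on 1 spot per array. The wild-type group (Pla2g4e+/+) and the knockout group (Pla2g4e-/-) were both C57BL/6N mice on postnatal day 0, with no treatment in the labels, and the tissue was skin. Each group was 1 Agilent array of Cy3-labelled RNA, and each array held a pool of equal parts of RNA from 5 animals. The series compared gene expression between the 2 genotypes; Pla2g4e encodes a cytosolic phospholipase A2 known to form N-acyl phosphatidylethanolamines. The sources used here do not say how the knockout allele was built or which exons it lacks.

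There are no replicate arrays, so differences below carry no test and no p-value, and their precision is limited by there being 1 array a group. A difference is the log2 intensity on the knockout array minus the same on the wild-type array, after each array was scaled to its own 75th percentile. Signals quoted for the pools are processed intensities before that scaling. The error beside a difference is the scanner software's estimate for the 2 spots, and the interval is that error times 1.96 on either side; neither includes the spread between animals. Across all genes the median of this error was 0.20 log2.

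Both pools gave similar arrays, with median spot signals of 249 and 241 and with 78.0% and 80.9% of probes well above background in wild-type and knockout skin. The epidermal keratins Krt5 and Krt14 of basal cells and Krt1 and Krt10 of suprabasal cells were bright in both pools and differed by -0.05, 0.00, 0.11 and 0.14 log2, so the labelled tissue had its defining RNA. Pla2g4e itself read 662 in wild-type skin and 319.6 in knockout skin, a difference of -0.96 log2 with an error of 0.20, which left a knockout level of 0.514 of wild type. A second Pla2g4e probe read 10.6 and 11.7, above background in knockout skin alone. There it lay under 16.9, the 95th percentile of that array's negative control spots. Whether either probe lies in the part removed is unknown, so neither checks the labels. The pools differed in sex-linked RNA. All 4 Y-linked genes measured (Eif2s3y, Ddx3y, Kdm5d and Uty) were well above background in wild-type skin alone, with Eif2s3y at 5363 against 6.35, and Xist, transcribed from the inactive X chromosome, read 796 and 2889. Genotype, sex and position on the shared slide therefore cannot be told apart in any difference given here.

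Epithelia of the skin keep microbes out partly by secreting small proteins. Beta-defensins are short cationic peptides held by disulphide bonds that damage microbial membranes, and some of them also draw immune cells through the chemokine receptor CCR6. Camp is the precursor of cathelicidin, which keratinocytes and neutrophils release; Lcn2 binds bacterial siderophores and so withholds iron; and Slpi inhibits neutrophil elastase and cathepsin G and also kills bacteria. The serum amyloid A proteins are acute phase apolipoproteins, of which Saa1 and Saa2 are known best from liver and Saa3 from tissues outside it. Interleukin 1, interleukin 6, interleukin 17A and interleukin 22, acting through NF-kB, STAT3 and C/EBP factors, are known inducers of many of these genes in keratinocytes.

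Of the 10 genes, 8 were well above background on both arrays, Defb3 was above it in knockout skin alone, and Defb4 in neither. Saa3, Slpi, Saa1, Lcn2 and Defb14 were at least 2-fold higher in knockout skin, which is 5 of the 8 measured genes, where 2.23% of all 19406 measured genes were as much higher. Defb6 and Camp were at least 2-fold lower, which is 2 of 8, where 1.44% of all measured genes were as much lower. At the smaller size of 1.5-fold, Defb1 joined the higher genes to make 6 of 8, against 6.73% of all genes, and the lower genes stayed at 2 of 8, against 4.49%. The median difference of the 8 genes was 1.56 log2 and that of all measured genes 0.01, and the central 95% of all genes ran from -0.76 to 0.95. In whole skin, fewer cells of a type and less RNA per cell cannot be told apart.

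**Figure D1:**
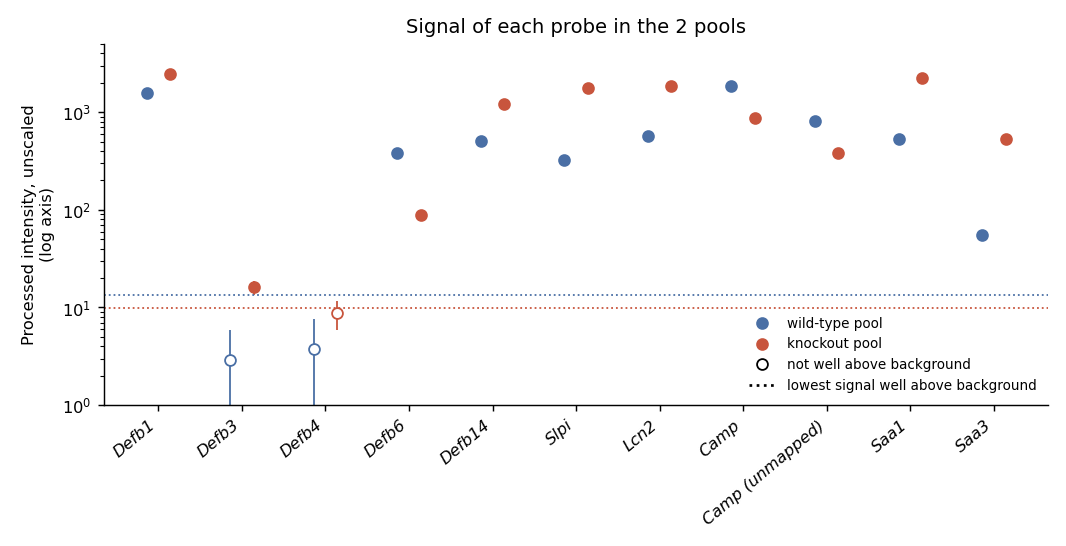
Processed intensity before scaling (vertical, log axis) of each of the 11 probes in wild-type skin (blue) and knockout skin (red), with bars for the scanner's error where they exceed the symbol and open circles for spots not well above background. Saa3 stands at 54.9 and 528 and Slpi at 322 and 1769, Defb6 is at 386 and 89.3, and both Defb3 and Defb4 lie near or below the dotted lines that mark the lowest spot well above background on each array.

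Both serum amyloid A genes were higher in knockout skin, Saa3 by more than any other of the 10 genes in the main setting, but level with Slpi under another background correction, normexp (2.35 and 2.36 log2). The Saa3 probe (NM_011315, mm9 chr7:53970389-53970448, minus strand) read 54.9 in wild-type skin and 528 in knockout skin. The knockout pool was thus 10.2-fold higher, a difference of 3.36 log2 with an error of 0.23 and an interval of 2.91 to 3.80, and Saa3 ranked 13 from the top of the 19406 measured genes. With normexp, which adds an offset to every spot and so shrinks the differences of dim ones most, it was 5.10-fold higher. The Saa1 probe (NM_009117, mm9 chr7:53996070-53996129, minus strand) read 536 and 2229.9, which is 4.43-fold higher in knockout skin, a difference of 2.15 log2 with an error of 0.20 and an interval of 1.75 to 2.55. Its rank was 57.

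Mouse Saa1, Saa2 and Saa3 are paralogs, Saa1 and Saa2 being close to identical in their coding sequence, so the probes are shown to let the stretch each one reads be seen. The capitals in the Saa1 probe mark the TGA stop codon, which begins at its base 54.
Saa1 probe: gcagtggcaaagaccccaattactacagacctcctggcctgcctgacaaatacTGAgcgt
Saa3 probe: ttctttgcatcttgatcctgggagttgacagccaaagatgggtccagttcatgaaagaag
Saa2 probe, first 30 bases: ttactcgagcagtagtaactgcttgaggag
The longest run of bases that the Saa1 probe shares with the Saa3 probe is 6, and with the Saa2 probe 5, so the 3 probes read different stretches. Transcript sequences were not used here, so how far Saa2 RNA adds to the Saa1 signal was not tested. Saa2, which is not among the 10 genes, read 34.2 in wild-type skin and 1491 in knockout skin at mm9 chr7:54009622-54009681. It was 46.5-fold higher there, a difference of 5.54 log2 with an error of 0.25, and ranked 1 of all 19406 measured genes; with normexp it stood at 4.06 log2 and kept that rank. The constitutive family member Saa4 was not well above background in either pool, at 4.38 and 9.30.

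The 3 genes lie close together within the serum amyloid A cluster, and the genes around them did not share the contrast. Within 200 kb of the Saa1 probe 10 other genes were measured, of which Saa2 and Saa3 reached 1.5-fold higher and 0 reached it in the lower direction. Saal1 at -47.8 kb differed by -0.17 log2, Hps5 at 19.8 kb by 0.05, the lactate dehydrogenase gene Ldha at 106.9 kb by 0.04 and the tryptophan hydroxylase gene Tph1 at -93.5 kb by 0.52.

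**Figure D2:**
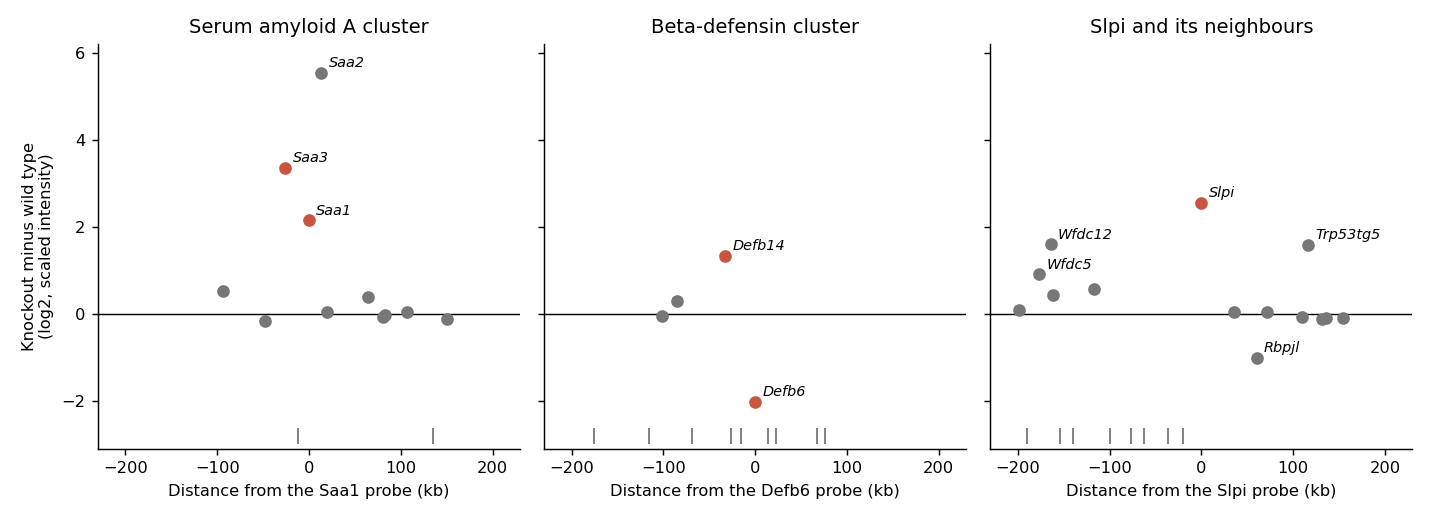
Difference between the pools (log2, knockout minus wild type, vertical) against distance in kb from the probe of Saa1, Defb6 or Slpi (horizontal), with the described genes in red, other measured genes in grey and tick marks at the bottom for genes not well above background on both arrays. Saa1, Saa2 and Saa3 stand at 2.15, 5.54 and 3.36 beside other neighbours between -0.17 and 0.52, while Defb14 at 1.33 and Defb6 at -2.02 lie in opposite directions within 1 cluster.

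Because the 3 serum amyloid A genes were higher together, the 250 bases before each transcription start are given from RefSeq (GRCm38.p6), which had such a stretch for 7 of the 10 genes and for Saa2. Capitals mark the C/EBP pattern TTNNGCAA on either strand.
Saa1, chr7:46742981-46743230, minus strand: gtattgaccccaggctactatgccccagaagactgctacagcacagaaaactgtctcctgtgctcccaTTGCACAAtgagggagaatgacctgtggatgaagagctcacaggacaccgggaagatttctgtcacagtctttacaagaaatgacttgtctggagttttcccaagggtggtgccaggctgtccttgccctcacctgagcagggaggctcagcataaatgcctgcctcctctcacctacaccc
Saa2, chr7:46751583-46751832, plus strand: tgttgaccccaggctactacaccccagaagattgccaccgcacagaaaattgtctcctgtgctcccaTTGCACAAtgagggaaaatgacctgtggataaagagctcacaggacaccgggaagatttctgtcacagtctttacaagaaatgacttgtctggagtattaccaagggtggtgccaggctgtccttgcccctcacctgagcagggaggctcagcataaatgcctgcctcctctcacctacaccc
Saa3, chr7:46715677-46715926, minus strand: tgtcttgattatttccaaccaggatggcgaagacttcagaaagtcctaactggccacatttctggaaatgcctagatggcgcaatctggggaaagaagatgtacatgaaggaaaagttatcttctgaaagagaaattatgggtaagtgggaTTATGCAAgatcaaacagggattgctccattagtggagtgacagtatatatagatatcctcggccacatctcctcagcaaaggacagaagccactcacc
The stretches of Saa1 and Saa2 were identical at 94.8% of aligned positions, and both hold the pattern once, at 182 to 175 bases before the start in Saa1 and 183 to 176 in Saa2. The Saa3 stretch was 52.2% identical to that of Saa1 and holds the pattern at 99 to 92 bases before its start. The pattern was present in 6 of the 7 stretches, all but that of Camp, and in 9.56% of all 32851 RefSeq promoter stretches of this length. It narrows the looser pattern TTNNGNAA, which 6 of the 7 stretches and 36.8% of all stretches hold. The narrower pattern was taken up after the looser matches in these genes had been seen. Its count of 6 is therefore not an independent comparison with 9.56%. These and the other patterns below were searched on both strands. A match describes letters and shows neither binding nor use.

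Among the secreted antimicrobial proteins, Slpi and Lcn2 were higher in knockout skin and Camp was lower. The Slpi probe (NM_011414, mm9 chr2:164179849-164179908, minus strand) read 322 in wild-type skin and 1769 in knockout skin. That is 5.85-fold higher, a difference of 2.55 log2 with an error of 0.20 and an interval of 2.15 to 2.95, and Slpi ranked 36 from the top. The Lcn2 probe (NM_008491, mm9 chr2:32240199-32240258, minus strand) read 564 and 1835, which is 3.46-fold higher, a difference of 1.79 log2 with an error of 0.20 and an interval of 1.39 to 2.19. It ranked 99.

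Slpi sits in a cluster of genes with the whey acidic protein domain, and some of those were higher too. Of 13 measured neighbours within 200 kb of its probe, Wfdc12, an antibacterial member of that family at -164 kb, read 206 and 585 and differed by 1.60 log2, and Wfdc5 at -176.8 kb read 449 and 793 and differed by 0.91. Trp53tg5 differed by 1.59 and Rbpjl by -1.01, while Sdc4 and Matn4 differed by 0.04 and 0.05. Over the wider family, 12 genes other than Slpi were measured, of which 3 lay at least 1.5-fold above wild type and 2 as far below. The shares over all measured genes were 6.73% and 4.49%. The median of the family was 0.18 log2, and Wfdc21 was the lowest at -0.64. Lcn2 stood alone in its surroundings, where 14 other genes were measured and 0 reached 1.5-fold in either direction, from Ptges2 at -0.44 to Pip5kl1 at 0.42. The RefSeq stretch before the Lcn2 start is shown because it carries the same C/EBP pattern, in capitals, at 216 to 209 bases before the start; that of Slpi carries it at 241 to 234.
Lcn2, chr2:32387740-32387989, minus strand: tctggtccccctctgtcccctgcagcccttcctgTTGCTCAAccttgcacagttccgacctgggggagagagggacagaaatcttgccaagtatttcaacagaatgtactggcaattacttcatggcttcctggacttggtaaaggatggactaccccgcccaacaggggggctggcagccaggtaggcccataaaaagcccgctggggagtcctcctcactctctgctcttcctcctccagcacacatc

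Camp went the other way on both of its probes. The probe with a genome position (NM_009921, mm9 chr9:109749911-109749970, minus strand) read 1857 in wild-type skin and 869 in knockout skin, which is 2.01-fold lower, a difference of -1.004 log2 with an error of 0.20 and an interval of -1.40 to -0.60. The probe that the array file leaves without a position read 817 and 380.1, 2.02-fold lower, a difference of -1.01 log2 with an error of 0.20. These are not independent readings of the gene, since 48 of the 50 bases over which the probes overlap are identical. A stretch of 30 bases of each is printed to show where they differ, in capitals, at A6G and T10C counted from 1 at the left of the stretch, with the base of the positioned probe first.
Camp, positioned probe: cagccAgagTagtaggcctgccttggcctg
Camp, unpositioned probe: cagccGgagCagtaggcctgccttggcctg
Camp ranked 277 from the bottom and lay just past the 2-fold size, which it missed at -0.96 log2 with normexp. Of 4 measured genes within 200 kb, Spink8 was 1.83-fold higher, and Nme6 and Cdc25a differed by -0.19 and -0.45 log2.

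Neutrophils also make Lcn2, Camp and Slpi, so the neutrophil markers are set beside them. Of 15 such markers on the array 14 were measured. Of these, 7 were at least 2-fold higher in knockout skin, or 5 with normexp, and 0 lower, with a median of 0.82 log2. Over all measured genes 2.23% were as much higher, or 1.21% with normexp, and 1.44% as much lower. The summed scaled signal of the markers was 66.9 in wild-type skin and 74.4 in knockout skin, or 10.9 and 20.1 without Csf3r, the brightest. The sum without Csf3r still held S100a8 (1631 and 6159.8 before scaling), S100a9 (3357 and 16197) and Itgam (17767 and 17583). Of the 14 measured markers, the highest was the collagenase Mmp8, at 21.6 and 119 (2.56 log2, and 1.30 with normexp). Csf3r was the lowest, at 125040 and 113910 (-0.04 log2), and whether its probe also reads another transcript was not tested. Mmp9 was above background in knockout skin alone. The primary granule proteases Elane, which Slpi inhibits, and Prtn3, which cleaves the human cathelicidin precursor, differed by 0.05 and 0.10 log2, and myeloperoxidase (Mpo) by 0.54. Of the 15 markers, 10 are also in the lists of antimicrobial genes used below, and keratinocytes make some of them, such as S100a8 and S100a9. Among the markers outside those lists, Cxcr2 and Retnlg differed by 1.92 and 1.65 log2. Fcnb, Itgam and Csf3r, also outside them, differed by 0.04, 0.08 and -0.04. The part of neutrophils in the results for Slpi, Lcn2 and Camp was not tested.

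The beta-defensins split. Defb14, the mouse counterpart of human beta-defensin 3 (NM_183026, mm9 chr8:19195152-19195211, plus strand), read 512 in wild-type skin and 1213 in knockout skin. It was 2.52-fold higher, a difference of 1.33 log2 with an error of 0.20 and an interval of 0.93 to 1.73, with rank 222 from the top. Defb1, a defensin that epithelia make without a stimulus (NM_007843, mm9 chr8:22905041-22905100, plus strand), read 1561 and 2476. It was 1.69-fold higher, a difference of 0.76 log2 with an error of 0.20 and an interval of 0.36 to 1.16, and the difference lies inside the central 95% of all genes.

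Defb6 (NM_054074, mm9 chr8:19228090-19228149, plus strand) was the member furthest down, with 386 in wild-type skin and 89.3 in knockout skin. It was 4.06-fold lower, a difference of -2.02 log2 with an error of 0.21 and an interval of -2.43 to -1.61, and ranked 36 from the bottom of all measured genes. With the normexp background correction the difference was -1.41 log2, or 2.66-fold lower. Hair follicle markers were also lower: of 20 measured, 14 were at least 1.5-fold lower and 0 higher. Over all measured genes 4.49% were as much lower and 6.73% as much higher. The median of the hair follicle markers was -0.80 log2, from the hair keratin Krt34 at -1.50 to Lef1 at -0.17. Their summed scaled signal was 220.2 in wild-type skin and 138 in knockout skin. Their part in the results for Defb6 and Camp was not tested.

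Defb3 and Defb4 gave little or no signal. The Defb3 probe (NM_013756, mm9 chr8:19295274-19295333, plus strand) read 2.91 in wild-type skin, not well above background, and 16.1 in knockout skin. Against the lowest signal of a spot marked well above background on the wild-type array, 13.4, knockout skin was at least 1.28-fold higher after scaling. The knockout reading lay under 16.9, the 95th percentile of the 153 negative control spots of that array. The Defb4 probe (NM_019728, mm9 chr8:19201282-19201341, plus strand) read 3.78 and 8.73 and was not well above background in either pool, so it has no fold.

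Defb4 and Defb6 are close paralogs, and their probes are set side by side because the dim and the bright one resemble each other. Over 47 overlapping bases 37 are identical, the longest common run is 12 bases, and in the 30 bases printed the 3 substitutions in capitals are G3A, A14G and G18C, counted from 1 at the left with the base of the Defb4 probe first.
Defb4 probe, stretch: aaGatagataaaaAgacGaagaaccagcaa
Defb6 probe, stretch: aaAatagataaaaGgacCaagaaccagcaa
Among the 55 pairs of the 11 probes, only that of the 2 Camp probes shares a run of 16 or more bases.

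Defb14, Defb4, Defb6 and Defb3 lie in that order within 100.1 kb of chromosome 8, and their directions differed within it. Defb14 at 1.33 log2 and Defb6 at -2.02 log2 are 32.9 kb apart. Around them Spag11b differed by 0.28 log2 and Defb34 by -0.04, and Defb5 and Defb12 were not above background in either pool. Defb46 was above background in knockout skin alone at 12.9, which lay under 16.9, the 95th percentile of that array's negative control spots. The RefSeq stretches before the starts of Defb3 and Defb6 are printed to show how alike the 2 promoters are. Capitals mark the C/EBP pattern given above and, in Defb6, the NF-kB consensus, which 7.25% of all stretches hold.
Defb3, chr8:19293111-19293360, plus strand: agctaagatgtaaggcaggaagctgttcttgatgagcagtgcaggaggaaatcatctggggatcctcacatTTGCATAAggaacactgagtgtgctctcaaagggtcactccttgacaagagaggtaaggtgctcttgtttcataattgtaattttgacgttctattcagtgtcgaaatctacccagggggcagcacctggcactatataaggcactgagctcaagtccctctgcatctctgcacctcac
Defb6, chr8:19225228-19225477, plus strand: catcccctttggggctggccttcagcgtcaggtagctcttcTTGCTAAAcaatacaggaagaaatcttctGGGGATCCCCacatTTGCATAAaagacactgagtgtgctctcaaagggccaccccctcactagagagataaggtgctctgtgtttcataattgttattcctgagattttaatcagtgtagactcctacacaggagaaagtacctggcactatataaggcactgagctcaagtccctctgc
The stretches were identical at 74.0% of aligned positions. Defb6 holds the C/EBP pattern at 209 to 202 and at 166 to 159 bases before the start and the NF-kB consensus at 180 to 171, and Defb3 holds the C/EBP pattern at 179 to 172. The NF-kB consensus was in 1 of the 7 stretches, and the STAT pattern TTCNNNGAA, the AP-1 pattern TGANTCA and the core promoter pattern TATAAA were in 0 of 7, where 7.02%, 6.75% and 12.4% of all stretches hold them. Only the exact letters TATAAA were searched, and the printed Defb3 and Defb6 stretches hold TATATAA, which those letters do not match. Its absence therefore does not show that a stretch lacks a core promoter element of this kind. The hexamer TGTTCT of glucocorticoid receptor sites was in 1 of 7, that of Defb3, against 16.1%.

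**Figure D3:**
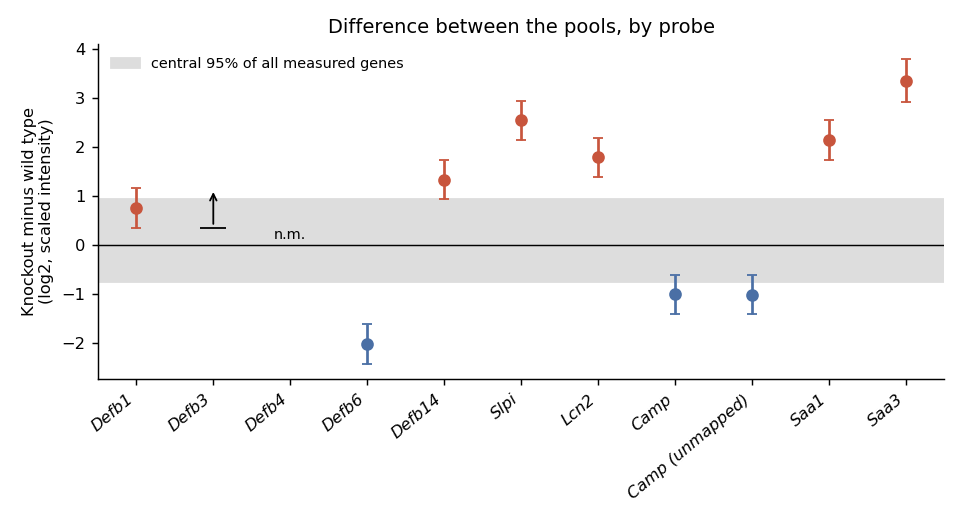
Difference between the pools (log2 of scaled intensity, knockout minus wild type, vertical) for each of the 11 probes, with bars of 1.96 scanner errors and a grey band for the central 95% of all measured genes, -0.76 to 0.95; the arrow marks the lower bound of Defb3 and n.m. a probe not measured. Saa3, Slpi, Saa1, Lcn2 and Defb14 lie above the band, Defb6 and both Camp probes below it, and Defb1 at 0.76 inside it.

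Other genes of the same defences were counted from lists drawn up by function. For the 2-fold counts in these lists, the shares over all measured genes were 2.23% higher and 1.44% lower. With normexp those shares were 1.21% and 0.624%. Of a list of 33 other beta-defensins 10 were measured and 21 were above background in neither pool. Defb36 was the 1 gene at least 2-fold higher, at 27.1 and 52.0 (1.03 log2, with an error of 0.29), 0 were lower, and the median was -0.08 log2; with normexp Defb36 stood at 0.48 and the median at 0.14. Defb9 was above background in wild-type skin alone, where it was at least 2.18-fold higher. Defb22 and Defb34, measured but not in this list, differed by 0.16 and -0.04.

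Of 19 other measured antimicrobial proteins of epithelia, 4 were at least 2-fold higher (3 with normexp, without Pglyrp1), 0 as much lower, and the median was 0.27 log2. S100a8 and S100a9, which pair as calprotectin and sequester zinc and manganese, read 1631 and 6159.8 (2.01 log2) and 3357 and 16197 (2.36 log2). The peptidoglycan recognition protein Pglyrp1 differed by 1.34 and chromogranin A (Chga) by 1.14. S100a7a, the mouse relative of psoriasin, was the lowest at -0.81. Of 13 measured genes in a list of neutrophil granule proteins 4 reached 2-fold higher, 2 of them with normexp, and 0 reached 2-fold lower. The 4 were Mmp8, Chil3 (2.55-fold), lactoferrin (Ltf, 2.28-fold) and Ngp (2.01-fold), and the median was 0.18 log2. That median counts in the stefin genes Stfa1, Stfa2, Stfa3 and Stfa2l1, which are not granule proteins. They were bright in both pools and differed by 0.18, -0.03, 0.18 and 0.01 log2.

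Other acute phase genes were counted with Saa2 among them. Of 29 measured, 7 reached 2-fold higher (4 with normexp), 1 reached 2-fold lower, and the median was 0.29 log2. After Saa2 came Serpina3n, a serine protease inhibitor of the acute phase, which read 77.2 and 749 and was 10.3-fold higher (3.37 log2, with an error of 0.21, and 2.70 log2 with normexp), and the fibrinogen chain gene Fga at 21.9 and 78.9 (1.94 log2, and 0.80 with normexp). Orm3 differed by 1.80, Itih4 by 1.46, Serpina3g by 1.44 and Itih3 by 1.15. The fibrinogen chain gene Fgg and Serpina3k were above background in knockout skin alone, at least 6.04-fold and at least 4.68-fold higher. Haptoglobin (Hp) and complement C3, also acute phase genes, differed by -0.11 and 0.19. The 1 gene counted as 2-fold lower was the transferrin receptor Tfrc, at 1374 and 479 (-1.43 log2), which is not an acute phase protein. Liver makes many acute phase proteins, and of its 10 markers 6 were measured and 2 were above background in knockout skin alone. The 6 ran from -0.36 to 0.71 log2, with 1 at least 1.5-fold higher and 0 as much lower. Their median was -0.10 log2, but 0.20 with the mean of each gene's probes. With no filter on dim probes the median of all 10 was 0.26. The summed scaled signal of the 6 was 1.30 in wild-type skin and 1.26 in knockout skin, or 0.36 and 0.32 without Apoa2, the brightest. Albumin (Alb) read 53.4 and 71.2, and Apob and Ttr were above background in neither pool.

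Most of the cytokines that are known to induce these genes, and of their receptors, differed by less than 2-fold. Of 34 measured cytokines and receptors 1 was at least 2-fold higher, the receptor chain Il20ra at 1.16 log2 (0 with normexp). Over all measured genes, 2.23% were as much higher. In the list 0 were as much lower, where 1.44% of all genes were, and the median was 0.18. Il6ra, the interleukin 6 receptor, was next at 0.93, Il1b differed by 0.60, Il17a by -0.01, Il22 by -0.14, Il6 by -0.45 and Tnf by -0.87. Of these, Il17a, Il6 and Il22 read no more than 16.4, 52.5 and 62.6 in either pool. Tnf read 93.5 in wild-type skin and 48.1 in knockout skin, and Il1b 95.6 and 135.6. All of these named cytokines thus lay below the median spot signals of 249 and 241, which limits their differences. Some other cytokines of the list were brighter. Il1f6 read 6468 in wild-type skin and 5369 in knockout skin (-0.18 log2). Il1f8 read 3570 and 4942 (0.56 log2), and Il1f9 read 562 and 845 (0.68 log2). Of 18 measured transcription factors of induction, Cebpd, the C/EBP factor best known from the acute phase, was the 1 gene at least 2-fold higher, at 7573 and 24166 (1.77 log2), and 0 were as much lower. Its relatives Cebpa and Cebpb differed by -0.09 and 0.02, Cebpe by 0.84, Stat3 by 0.05 and Rela by 0.05. Nfkbia and Nfkbiz, 2 genes for regulators of NF-kB, differed by 0.91 and 0.53. The vitamin D receptor Vdr, an inducer of human CAMP, was the lowest at -0.48.

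Receptors and partners of the proteins were also measured. Of 13 measured, the formyl peptide receptors Fpr1 (1.22 log2) and Fpr2 (1.17 log2), of which Fpr2 is known to respond to cathelicidin and serum amyloid A, were at least 2-fold higher, and 0 were with normexp. Mc1r, a melanocortin receptor that a beta-defensin of dogs binds, was at least 2-fold lower at -1.28. The median of the list was -0.01, and the Lcn2 receptor Slc22a17 differed by -0.30. Of 14 measured genes for proteases that process these proteins or are held in check by them, the protease inhibitor Spink5 among the 14, 0 reached 2-fold, from the matriptase gene St14 at -0.41 to cathepsin G (Ctsg) at 0.64, with a median of 0.20.

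**Figure D4:**
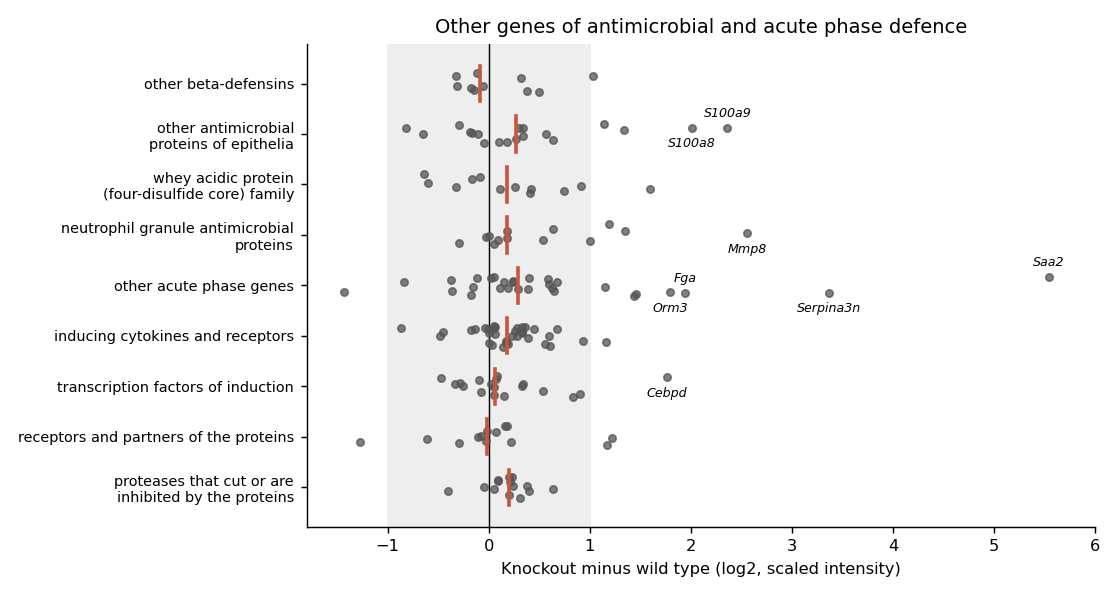
Difference between the pools (log2 of scaled intensity, knockout minus wild type, horizontal) for each measured gene of 9 lists (rows), with a red line at each list's median and a grey band within 2-fold. The medians lie between -0.08 and 0.29, and single genes such as Saa2 (5.54), Serpina3n (3.37), Mmp8 (2.56) and S100a9 (2.36) stand far to the right of their lists.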

How the data were processed

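Skin RNA of each genotype was read on 1 Agilent 1-colour array (design 026655, 60-base probes placed on mm9, per the file headers). The authors ran Agilent Feature Extraction 11.5.1.1, per the submitters' processing notes; the deposited scanner files give a processed intensity per spot, already background-subtracted. The deposited value table holds a ratio, equal to that intensity over 1 constant per array (2406 and 2273), uncentred, with medians of 0.0946 and 0.0969; it served as an alternative. Of the columns, 0 were of unknown origin.

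Outlier spots were dropped, spots of a probe averaged, and log2 intensity scaled to the 75th percentile of each array. Of 39422 probes, RefSeq (GRCm38.p6) named 28324 by accession, 2209 by symbol and 174 by synonym, the file named 1768, and 6954 had no name. A gene took its brightest probe well above background on both arrays. Repeat spots of 340 probes gave a median SD of 0.039 log2 for a difference. The normexp correction used limma 3.58.1 with an offset of 50.

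The genes, lists and sizes were chosen with earlier results of these data known. Named are all 10 genes, list members past 2-fold (up to 3 each way) or else the extremes, and the extremes of marker lists other than liver. Neighbours and further genes were picked after their values were seen. With 2 arrays, likeness of pattern between genes is undefined.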

Additional observations from a re-analysis of the deposited data

How the results depend on the processing

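Each of the 8 measured genes was recomputed under 9 alternatives to scaling, normalization, background correction, probe choice and filters. Of the 70 resulting values 0 changed sign and 68 moved by less than the scanner's error. The others were Defb6 at -1.41 log2 and Saa3 at 2.35 log2 with normexp, which shrinks differences of dim probes by its construction. The count of genes at least 2-fold lower was 1 with normexp, where Camp stood at -0.96 log2, and 1 among bright probes alone, where Defb6 and Saa3 were filtered out and 6 genes were left. The count at least 2-fold higher was 5 under every alternative except 7 of 10 with no filter on dim probes, which lets in Defb3 and Defb4, and 4 of 6 among bright probes alone. The median of the genes ran from 1.46 to 1.57 log2. Over all genes, the share at least 2-fold higher was 1.21% with normexp, 3.92% with no filter and 1.17% among bright probes, and the share lower 0.624%, 2.32% and 0.838%. No paired analysis was possible because each genotype has 1 pool and no replicate numbers. Signal over background limits what can be said of Defb3 and Defb4.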

Other observations

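Some markers of cell types not taken up above also differed between the pools. Among 8 measured mast cell genes the median was 0.42 log2, from the tryptase Tpsb2 at 0.21 to Fcer1a, a chain of the high-affinity receptor for immunoglobulin E, which read 46.3 in wild-type skin and 606 in knockout skin (3.80 log2). Hdc, which makes histamine, differed by 1.22. Among 10 macrophage genes the median was 0.27, from Csf1r at -0.13 to the haemoglobin scavenger receptor Cd163 at 1.02, and among 6 measured T cell genes it was -0.05, from Cd3g at -0.87 to Il7r at 0.66.

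The surrounding tissue gave these values. Of 10 suprabasal keratinocyte genes the median was 0.07, from Krt77 at -1.002 to involucrin (Ivl) at 0.63, and of 7 basal ones 0.24, from Krt5 at -0.05 to Col17a1 at 0.35. Of 14 skeletal muscle genes the median was 0.29, from Myh2 at -0.40 to the slow troponin Tnni1 at 1.36. Of 10 sebaceous gland genes it was -0.26, from Elovl3 at -1.13 to Scd3 at 0.17; of 9 white adipocyte genes -0.17, from the lipid droplet protein Plin1 at -1.13 to Lipe at 0.17; and of 5 salivary and mammary gland genes -0.21, from the water channel Aqp5 at -1.04 to Amy1 at 0.22.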
